A study of Homo sapiens with 10 samples.

Results

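The genes described here code for collagens, laminins and fibronectin and for enzymes that act on collagen chains. They are the protein-coding genes whose symbols follow the numbering of collagen chains (COL) or laminin chains (LAMA, LAMB, LAMC), together with FN1, LOX, LOXL1 to LOXL4 and PLOD1 to PLOD3. Of the 63299 gene identifiers in the count tables, 65 met this rule, and 53 of them were among the 16143 genes with enough counts to be tested. They comprise 11 fibrillar collagen genes, 6 type IV collagen genes, 12 laminin genes, 27 genes of other collagens, FN1, 5 genes of the LOX family and 3 PLOD genes.

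Collagen chains wind around each other into trimers in the endoplasmic reticulum and are secreted. Fibrillar collagens then assemble into the fibrils that give bone, skin and tendon their strength, whereas type IV collagens and laminins form the sheet-like networks of basement membranes, to which cells attach through integrins and other receptors. PLOD enzymes hydroxylate lysines of collagen chains inside the cell, and LOX enzymes oxidise lysines of collagen and elastin outside it, which allows neighbouring molecules to be cross-linked. Osteoblasts, the bone-forming cells to which osteosarcoma is related, secrete type I collagen as the main protein of bone matrix.

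RNA-sequencing compared U2OS cells, an established human osteosarcoma line, after a control knockdown (siCtrl) and after knockdown of the DEAD-box helicase DDX41 (siDDX41). Both groups were grown in DMEM with fetal bovine serum and received pools of siRNAs for 48 h, and each is represented by 5 libraries of polyadenylated RNA made with a stranded kit. Total counts per library lay between 23393764 and 24598860 in siCtrl and between 21807041 and 24896398 in siDDX41. The labels do not say that replicates came from separate cultures, so the p-values measure only the spread between these libraries, which may be technical. Levels are given as counts scaled to a common library size with TMM factors (CPM), and changes as log2 fold changes of siDDX41 against siCtrl with the standard error (SE). Genes with an adjusted p under 0.01 in edgeR's quasi-likelihood test over all 16143 genes are called higher or lower. RNA was taken from whole cultures, so fewer cells that express a gene and less RNA of it per cell cannot be told apart.

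The targeted gene followed the labels. DDX41 (ENSG00000183258.11) was measured at 49.1, 49.4, 47.3, 47.2 and 50.5 CPM in siCtrl replicates 1 to 5 and at 11.5, 13.7, 12.4, 11.2 and 12.3 CPM in siDDX41 replicates 1 to 5. The groups did not overlap (log2 fold change -1.99, SE 0.049, edgeR adjusted p = 4.47e-24). Of the markers of the osteoblast lineage, RUNX2 was present at 32.4 CPM in siCtrl and was lower in siDDX41 (log2 fold change -0.40), as was ALPL (-0.70), and SPP1 was at 19.01 CPM and was higher (0.66), whereas the mature osteoblast genes BGLAP and IBSP and the transcription factor SP7 had at most 4 counts in any library. Mesenchymal VIM was abundant (2465 CPM in siCtrl). The mesenchymal markers moved with the group in both directions, with VIM and CDH2 lower (log2 fold changes -0.087 and -0.12) and CDH11 higher (0.19). PTPRC of leukocytes, PECAM1 of endothelium and MLANA of melanocytes had at most 16 counts in any library. The 3 endothelial markers summed to 4.66, 4.82, 5.59, 5.26 and 4.79 CPM in the siCtrl libraries and to 1.52, 2.61, 2.902, 2.17 and 2.13 CPM in the siDDX41 libraries. VWF, the most abundant of them, was lower, with a log2 fold change of -0.99. CDH5 was called lower too (-1.49, at 4 to 30 counts per library). Its siDDX41 mean of 0.355 CPM was under the cutoff of 0.422 CPM of the filter on low counts. CDH5 was thus tested mainly through its siCtrl libraries, and its value is a description. The 2 melanocyte markers summed to 1.06, 0.939, 0.883, 1.198 and 0.958 CPM in siCtrl and to 0.414, 0.521, 0.685, 0.511 and 0.426 CPM in siDDX41, nearly all from PMEL, which was lower (-0.95; 9 to 28 counts per library). The 5 epithelial markers summed to 1058, 1097, 977, 1022 and 1045 CPM in the siCtrl libraries and to 1647, 1701, 1564, 1760.0 and 1755 CPM in the siDDX41 libraries. Of these, KRT8 and KRT18 were higher, KRT5 was lower, and EPCAM and CDH1 were not called; KRT8 was the most abundant in siCtrl, while the defining marker CDH1 had at most 32 counts in any library. CD34, a marker of blood progenitors and endothelium that other cells also express, was at 30.4 CPM in siCtrl and 4.66 CPM in siDDX41. The share of counts from mitochondrial genes also moved with the group, from 1.13% to 1.69% in siCtrl and from 1.995% to 2.29% in siDDX41. The part of these markers and of the mitochondrial share in the results was not tested.

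DDX41 knockdown was accompanied by changes in both directions across the matrix genes. Of the 53 tested genes, 17 were higher and 22 were lower in siDDX41, and 14 were not called. These numbers hold COL4A3 as higher and COL9A3 and COL15A1 as lower, each of which was tested only because of its counts in the group where it was higher. With a correction for GC content, 19 matrix genes were higher and 19 lower, so the larger number of lower matrix genes was not kept. Among all tested genes, 62.4% were called, 30.3% as higher and 32.1% as lower. A call by itself was thus common in this comparison. For the matrix genes the shares were 73.6%, 32.1% and 41.5%. A log2 fold change beyond 1 in either direction together with a call was found for 10 of the matrix genes, 8 lower (COL9A3 included) and 2 higher (COL4A3 included), and for 8.62% of all tested genes. The median absolute log2 fold change was 0.47 over the matrix genes and 0.28 over all tested genes, and the median signed change was -0.068 and -0.0014. The classes differed in their balance of calls. Type IV collagens had 4 higher genes (COL4A3 included), no lower one and a median log2 fold change of 0.59, whereas fibrillar collagens had 2 higher and 6 lower genes (4 lower with GC correction) and a median of -0.49. For laminins the numbers were 3 higher and 3 lower with a median of -0.036, and for the other collagens 5 higher and 9 lower (COL9A3 and COL15A1 included) with a median of -0.39. Type IV and laminin genes together, the chains of basement membranes, had 7 higher (COL4A3 included) and 3 lower genes among 17 tested. No test was made between classes. Measured against a minimum fold of 1.2 in place of no change, LAMC1, LAMC3, COL2A1, COL6A2, COL7A1, COL15A1, COL17A1, COL24A1, COL27A1 and LOXL4 were no longer called.

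**Figure D1:**
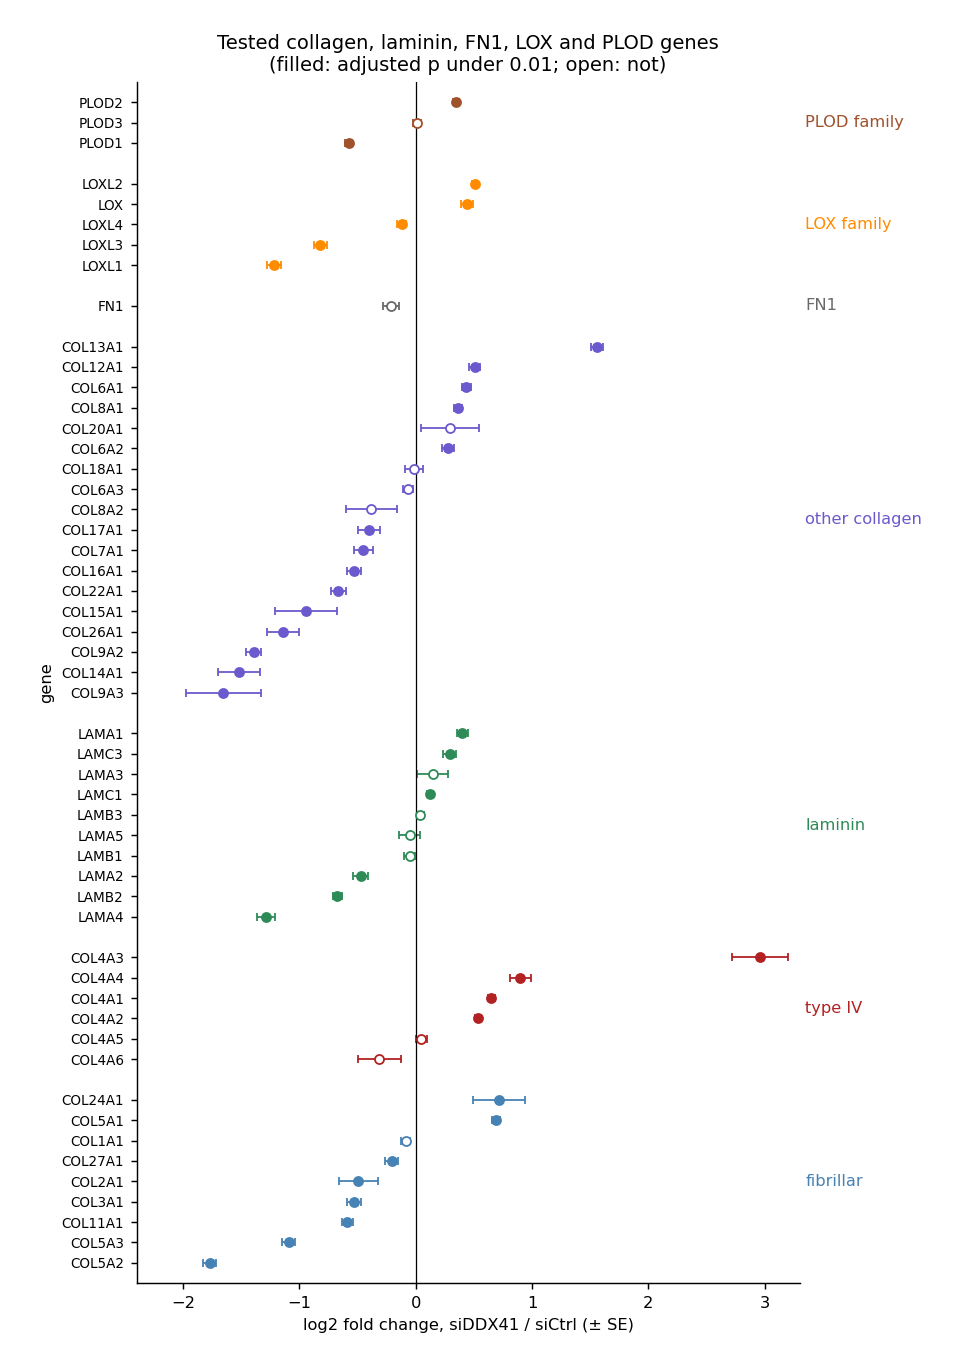
Log2 fold changes of siDDX41 against siCtrl (x axis; points with bars of ± 1 SE) for 52 of the 53 tested genes, grouped and coloured by class, with filled points for an adjusted p under 0.01. The values run from -1.77 for COL5A2 to 2.96 for COL4A3, and COL4A1, COL4A2 and COL4A4 lie to the right of 0.

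The remaining 12 genes were too low to be tested. COL11A2 had 0 counts in each library, as had 7 of the 8 protein-coding genes annotated in the 100 kb beside it, among them RPS18, a ribosomal protein gene. COL11A2 is therefore only listed at 0. The other 11 (COL1A2, LAMB4, COL6A5, COL6A6, COL9A1, COL10A1, COL19A1, COL21A1, COL23A1, COL25A1 and COL28A1) had between 0 and 18 counts per library. Among the tested genes, COL4A3 passed the filter on low counts only through its siDDX41 libraries, and COL9A3 and COL15A1 only through their siCtrl libraries, so a difference between groups was built into their selection.

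Levels of different genes were compared per kilobase of exon in the siCtrl libraries (CPM per kb, mean ± SD, n = 5). COL1A1 led with 208 ± 11.1, followed by LOXL4 with 123 ± 1.76, PLOD1 with 112 ± 4.67, FN1 with 97.1 ± 10.6 and LAMC1 with 83.5 ± 2.05; PLOD1 and FN1 differed by less than the sum of their SDs. The order depends on the length used. Divided by the longest transcript in place of all exons together, COL1A1 was still first with 317 CPM per kb, and PLOD1 (199), FN1 (182) and COL4A2 (129, against 43.1 ± 1.36 over all exons) came before LOXL4 (123). COL6A1 (53.1 ± 3.43) and COL6A2 (51.99 ± 4.42) were alike in level over all exons, as were COL5A1 (33.1 ± 1.32) and COL5A2 (32.7 ± 1.94). Among the tested genes COL4A3 was the lowest, at 0.0203 ± 0.00441. The log2 fold changes of the 5 genes with the highest levels over all exons were -0.086 for COL1A1, -0.12 for LOXL4, -0.58 for PLOD1, -0.21 for FN1 and 0.13 for LAMC1, so that of these 5 only PLOD1 had an absolute value above the median of the tested matrix genes.

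**Figure D2:**
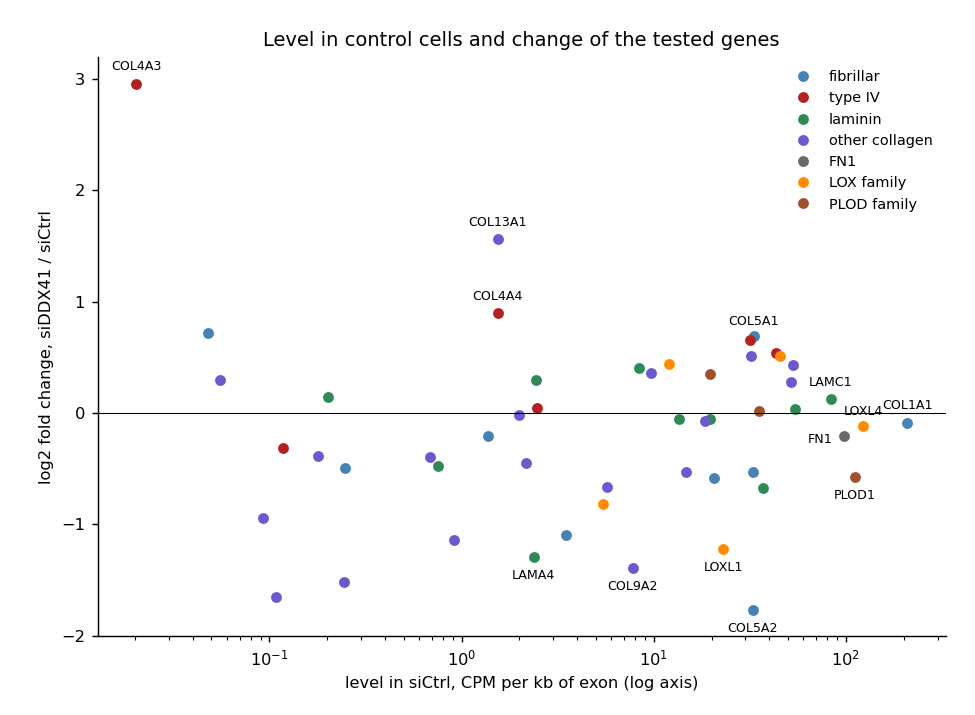
Level in siCtrl in CPM per kb of exon (x axis, log scale) and log2 fold change (y axis) of 52 of the 53 tested genes, coloured by class, each point being 1 gene. COL1A1 lies farthest right at 208 CPM per kb with a change of -0.086, COL5A2 lowest at -1.77 and COL4A3 highest at 2.96.

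Among the fibrillar collagens, the chains of type V collagen did not move together. This collagen is a minor component of type I fibrils and takes part in setting their diameter. COL5A2 (ENSG00000204262.11; chr2:189031898-189225312 on GRCh38) was at 249, 219, 255, 239 and 233 CPM in the siCtrl libraries and at 64.5, 78.8, 64.6, 72.4 and 70.6 CPM in the siDDX41 libraries. It was 3.41-fold lower after knockdown, with no overlap between the groups (log2 fold change -1.77, SE 0.056, edgeR adjusted p = 1.03e-12). COL5A1 (ENSG00000130635.15; chr9:134641803-134844843), the partner chain, was at 363, 377, 369.8, 348 and 387 CPM in siCtrl and at 564, 652, 576, 570.1 and 613 CPM in siDDX41. Every siDDX41 library lay above every siCtrl library, and the gene was 1.61-fold higher (log2 fold change 0.69, SE 0.037, edgeR adjusted p = 2.35e-13). COL5A3, which codes for a less common type V chain, was measured at 22.95, 24.9, 24.2, 22.6 and 24.5 CPM in siCtrl and 10.4, 12.4, 11.2, 11.1 and 10.9 CPM in siDDX41. Like COL5A2 it was lower without overlap, by 2.13-fold (log2 fold change -1.09, SE 0.055, edgeR adjusted p = 8.16e-17).

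Because the ratio of 2 genes within a library does not depend on how libraries are scaled, 13 pairs of chains were also compared by their log2 count ratio, with a pseudocount of 0.5, a two-sided exact permutation test over the libraries and adjustment over the pairs. The list held 14 pairs, and for COL1A1 and COL1A2 the counts are given without a test; 11 of the tested pairs are given here. With 5 libraries against 5 the smallest p this test can give is 0.00794, and 0.0129 is the adjusted p of the 7 pairs given here that reached it. Pairs of other genes were not compared, so the share that would pass is not known. Since 62.4% of all tested genes were called, a passing pair is not by itself particular to these chains. The COL5A1 to COL5A2 ratio of counts had a geometric mean of 1.54 in siCtrl and 8.49 in siDDX41. Its log2 value was 0.54, 0.78, 0.54, 0.54 and 0.73 in the siCtrl libraries and 3.13, 3.05, 3.16, 2.98 and 3.12 in the siDDX41 libraries. The difference of 2.46 (SE 0.063, exact permutation test, adjusted p = 0.0129) was larger in size than that of any other pair given.

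COL1A1 (ENSG00000108821.13; chr17:50184101-50201632), a chain of type I collagen, was the most abundant of the 65 genes per kilobase, and its level differed little between the groups. It was at 1895, 1985, 1793, 1752 and 1951 CPM in siCtrl and at 1668, 1895, 1801, 1678 and 1788 CPM in siDDX41. The groups overlapped, and the gene was not called (log2 fold change -0.086, SE 0.039, edgeR adjusted p = 0.0551). It passed the threshold without siCtrl replicate 4 (edgeR adjusted p = 0.00891, log2 fold change -0.11) and when genes were not filtered on low counts (edgeR adjusted p = 0.005095, log2 fold change -0.081). With the replicate number as a block COL1A1 passed too (edgeR adjusted p = 0.00853, log2 fold change -0.086). With a correction for GC content its direction turned (log2 fold change 0.0080, edgeR adjusted p = 0.798). COL1A2, which codes for the other chain of the usual type I trimer, had 6, 18, 8, 8 and 14 counts in the siCtrl libraries and 4, 8, 6, 6 and 13 counts in the siDDX41 libraries. COL1A1 thus had between 2702 and 9064 counts for each count of COL1A2 in a library, and type I chains were counted almost entirely from COL1A1 in both groups.

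COL3A1, which forms fibrils together with type I collagen in soft tissues, was lower after knockdown, and so were the cartilage collagen genes COL11A1 and COL2A1 and the widely expressed COL27A1. COL3A1 ranged from 202 to 231 CPM in siCtrl and from 137 to 175 CPM in siDDX41 (log2 fold change -0.53), and COL11A1 from 168 to 198 and from 118 to 138 CPM (log2 fold change -0.59). Neither gene's groups overlapped. COL27A1 and COL2A1 were called lower although their groups overlapped, with log2 fold changes of -0.21 and -0.49. COL27A1 was not called after correction for GC content (edgeR adjusted p = 0.0629, log2 fold change -0.11). COL2A1 had 23 to 48 counts per library and an edgeR adjusted p of 0.00976. Without siCtrl replicate 1, 2, 4 or 5 or siDDX41 replicate 1, 3, 4 or 5 its call was lost (edgeR adjusted p from 0.0102 to 0.03704), and also with other scalings and with DESeq2 (adjusted p = 0.0442). COL24A1 was the other fibrillar gene called higher (log2 fold change 0.72, edgeR adjusted p = 0.00562), from 9 to 20 counts per library. Without siCtrl replicate 3, 4 or 5 or siDDX41 replicate 1, 4 or 5 that call was lost (edgeR adjusted p from 0.0102 to 0.0175), as it was with DESeq2 (adjusted p = 0.0372).

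**Figure D3:**
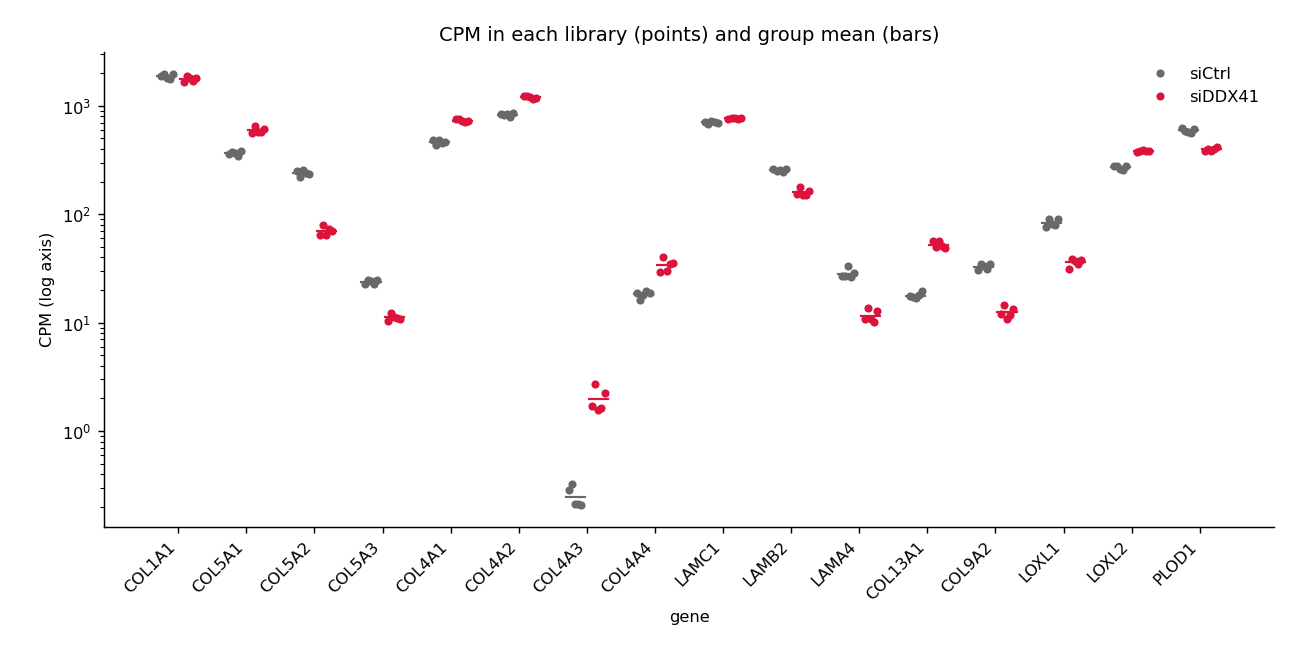
CPM of 16 genes on a log axis in each siCtrl (grey) and siDDX41 (red) library, with horizontal bars at the group means (5 libraries per group). COL1A1 overlaps between groups. The other genes shown have separate groups, but most were picked for a small adjusted p, so this follows from the choice. Their values run from COL4A3 (0.208 to 0.327 CPM in siCtrl), tested only through its siDDX41 libraries, to COL4A2 (1152 to 1239 CPM in siDDX41). The share of all tested genes with separate groups was not determined.

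Type IV collagen genes lie in pairs that point away from each other. COL4A1, COL4A2 and COL4A4 were higher after knockdown, and COL4A5 and COL4A6 were not called. COL4A3 was called higher too, but it passed the filter on low counts only through its siDDX41 libraries, so its call is given as a description. COL4A1 and COL4A2 code for the chains of the type IV network found in almost all basement membranes. COL4A1 was at 485, 439, 488, 457 and 462 CPM in siCtrl and at 749.7, 762, 727, 705 and 719 CPM in siDDX41, a 1.57-fold higher level without overlap (log2 fold change 0.65, SE 0.030, edgeR adjusted p = 7.26e-18). For COL4A2 the libraries gave 846, 824, 842, 787 and 850.5 CPM in siCtrl and 1225, 1239, 1207, 1152 and 1188 CPM in siDDX41, again without overlap and 1.45-fold higher (log2 fold change 0.53, SE 0.027, edgeR adjusted p = 7.91e-17). COL4A1 gained slightly more than COL4A2. Their count ratio had a geometric mean of 0.562 in siCtrl and 0.609 in siDDX41, a log2 difference of 0.12 (SE 0.027, exact permutation test, adjusted p = 0.0129).

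COL4A3 and COL4A4, whose chains belong to the network of the kidney glomerulus, had higher values in siDDX41, from far lower levels. COL4A4 was at 18.9, 16.1, 17.96, 19.6 and 18.9 CPM in siCtrl and at 29.3, 40.7, 29.7, 34.7 and 35.9 CPM in siDDX41. It was 1.86-fold higher without overlap (log2 fold change 0.90, SE 0.090, edgeR adjusted p = 9.08e-07). COL4A3 (ENSG00000169031.18) had 7, 8, 5, 5 and 5 counts in the siCtrl libraries and 37, 63, 39, 38 and 53 counts in the siDDX41 libraries. This is the largest fold among the tested matrix genes (7.76-fold; log2 fold change 2.96, SE 0.24, edgeR adjusted p = 4.95e-12), in a gene with few siCtrl counts that shares 838 exonic bases with MFF-DT, a noncoding gene of the opposite strand with 271 counts over all libraries. Reads of that stretch cannot be assigned with certainty, as the strand setting of the counting is not given. COL4A5 and COL4A6, on the X chromosome, were not called, with log2 fold changes of 0.049 and -0.31 (edgeR adjusted p = 0.354 and 0.128). COL4A5 ranged from 27.1 to 31.1 CPM in siCtrl and from 28.5 to 32.7 CPM in siDDX41, and COL4A6 had 16 to 30 counts per library. Their count ratio did not pass the threshold (log2 difference 0.38, SE 0.17, exact permutation test, adjusted p = 0.0825), although it did without siDDX41 replicate 3 (log2 difference 0.50, exact permutation test, adjusted p = 0.0206).

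Stretches between the RefSeq start sites of these pairs are printed because COL4A1 and COL4A2 were higher together, as COL4A4 was beside COL4A3, while COL4A6 and COL4A5 were not called. They come from the RefSeq promoter window of the gene on the plus strand (GRCh38.p14), which runs from 250 bases before to 50 bases after a start site, and are limited to bases before that start site and outside annotated exons. RefSeq promoter entries matched 49 of the 65 genes. Capitals mark GGGCGG, which Sp1-family factors can bind, and CCAAT, which NF-Y can bind, on either strand. Sequences are of the plus strand, 5′ to 3′: chr13:110307158-110307257 between COL4A1 and COL4A2, chr2:227164454-227164623 between COL4A4 and COL4A3, and chrX:108439588-108439837 between COL4A6 and COL4A5. In the GENCODE annotation the spans of COL4A1 and COL4A2 overlap, and the first stretch lies inside the span of COL4A2.
COL4A1/COL4A2: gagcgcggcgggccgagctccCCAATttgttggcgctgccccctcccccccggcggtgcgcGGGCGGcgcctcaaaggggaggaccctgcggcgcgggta
COL4A4/COL4A3: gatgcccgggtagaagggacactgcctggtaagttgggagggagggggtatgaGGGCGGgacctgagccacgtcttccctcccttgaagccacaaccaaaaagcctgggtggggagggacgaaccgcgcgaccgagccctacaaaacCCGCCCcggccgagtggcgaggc
COL4A6/COL4A5: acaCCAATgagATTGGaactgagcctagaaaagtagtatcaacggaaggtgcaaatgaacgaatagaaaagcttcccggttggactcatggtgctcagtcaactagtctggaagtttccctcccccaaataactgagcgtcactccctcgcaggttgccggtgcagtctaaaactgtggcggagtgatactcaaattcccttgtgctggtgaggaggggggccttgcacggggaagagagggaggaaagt
The COL4A1/COL4A2 stretch of 100 bases (78% GC) held 1 match to GGGCGG and 1 to CCAAT, the COL4A4/COL4A3 stretch of 170 bases (65.9% GC) held 2 to GGGCGG and 0 to CCAAT, and the COL4A6/COL4A5 stretch of 250 bases (51.2% GC) held 0 and 2. TATAAA and the AP-1 motif TGAGTCA were searched on both strands too and occurred in none of the printed stretches. Of all 35116 RefSeq windows, 44.95% held GGGCGG, 34.6% CCAAT, 11.5% TATAAA and 4.95% TGAGTCA. Those windows have 300 bases, more than any printed stretch, so the shares are not directly comparable. The window of COL4A4 itself did not hold GGGCGG. The RefSeq start sites lie 127, 419 and 380 bases apart in the order of the pairs above. A match describes letters only, and binding was not measured.

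Laminins are trimers of an alpha, a beta and a gamma chain, and the chains of each kind changed unevenly. Of the gamma chains, LAMC1, the one most laminins contain, was at 716, 683, 726, 708 and 692 CPM in siCtrl and at 757, 779, 774, 763 and 774 CPM in siDDX41. The groups did not overlap and the change was small (log2 fold change 0.13, SE 0.025, edgeR adjusted p = 4.56e-05). LAMC3 was higher as well (log2 fold change 0.29). Of the beta chains, LAMB2, found at the neuromuscular junction and in the glomerulus, was lower, from 260.4, 249.99, 255, 246 and 261 CPM in siCtrl to 154, 180.1, 149, 149.98 and 165 CPM in siDDX41. All siDDX41 libraries were below all siCtrl libraries (log2 fold change -0.67, SE 0.042, edgeR adjusted p = 4.09e-11). LAMB1 was not called (-0.052), nor was LAMB3, a chain of the epithelial laminin that also holds LAMA3, which ranged from 237 to 261 CPM in siCtrl and from 250.5 to 271 CPM in siDDX41 (log2 fold change 0.039, SE 0.029, edgeR adjusted p = 0.238). LAMB3 was called higher after correction for GC content (edgeR adjusted p = 2.22e-05, log2 fold change 0.14) and after correction for gene length (edgeR adjusted p = 0.00924, log2 fold change 0.085).

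The alpha chains, which carry the main sites for cell receptors, went both ways. LAMA4 (ENSG00000112769.18; chr6:112107931-112254939), a chain of blood vessel and mesenchymal laminins, was at 26.7, 26.9, 33.1, 26.4 and 28.8 CPM in siCtrl and at 10.9, 13.7, 10.8, 10.1 and 12.7 CPM in siDDX41. It was 2.44-fold lower without overlap, the largest laminin change (log2 fold change -1.29, SE 0.079, edgeR adjusted p = 1.88e-11). LAMA2, the chain of muscle and nerve laminin, was lower too, at 17.6 to 22.96 CPM in siCtrl and 13.3 to 14.7 CPM in siDDX41 (log2 fold change -0.47, SE 0.063, edgeR adjusted p = 1.24e-07). LAMA1, the chain of the first laminin of the embryo, was higher (log2 fold change 0.40), while LAMA3 (0.15) and LAMA5 (-0.051) were not called.

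Chains were also compared within each library, which needs no scaling. LAMB2 relative to LAMB1 had a geometric mean of 0.697 in siCtrl and 0.452 in siDDX41 (log2 difference -0.62, SE 0.050, exact permutation test, adjusted p = 0.0129). LAMA4 relative to LAMC1 went from 0.0402 to 0.01504 (log2 difference -1.42, SE 0.093), with the same adjusted p. LAMB1 relative to LAMC1 was lower by a smaller amount, with a log2 difference of -0.18 (SE 0.047) and groups that did not overlap. LAMA5 relative to LAMC1 differed by -0.18 (SE 0.10, exact permutation test, adjusted p = 0.155) and did not pass.

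Of the other collagens, the transmembrane collagen gene COL13A1 (ENSG00000197467.13; chr10:69801880-69964275), whose protein is found at cell adhesions and the neuromuscular junction, had the largest rise of the class. It was at 17.4, 17.2, 17.03, 17.8 and 19.4 CPM in siCtrl and at 57.2, 50.03, 56.1, 50.5 and 48.7 CPM in siDDX41. The groups were far apart, 2.95-fold (log2 fold change 1.56, SE 0.050, edgeR adjusted p = 3.28e-21). COL17A1, the transmembrane collagen of epithelial hemidesmosomes, was lower instead (log2 fold change -0.40). Type VI collagen, which forms beaded filaments near cells, has chains coded by COL6A1, COL6A2 and COL6A3. COL6A1 was at 281, 315, 279, 279 and 314 CPM in siCtrl and at 411, 406, 408, 368 and 392 CPM in siDDX41, 1.35-fold higher without overlap (log2 fold change 0.43, SE 0.040, edgeR adjusted p = 7.01e-09). COL6A2 ranged from 251 to 306 CPM in siCtrl and from 312 to 353 CPM in siDDX41 (log2 fold change 0.28, SE 0.054, edgeR adjusted p = 4.65e-04). COL6A3 was not called (log2 fold change -0.068, edgeR adjusted p = 0.162; after correction for gene length -0.11, edgeR adjusted p = 0.002205). The COL6A3 to COL6A1 count ratio was lower in siDDX41, with a geometric mean of 1.35 in siCtrl and 0.953 in siDDX41 (log2 difference -0.50, SE 0.081, exact permutation test, adjusted p = 0.0129). The COL6A1 to COL6A2 ratio was slightly higher (log2 difference 0.15, SE 0.023, same adjusted p).

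Collagens that decorate fibrils (FACIT collagens) went both ways. COL9A2, a chain of the cartilage collagen type IX, was at 30.4, 34.4, 33.1, 31.3 and 35.03 CPM in siCtrl and at 11.96, 14.6, 10.9, 11.7 and 13.4 CPM in siDDX41. It was 2.63-fold lower without overlap (log2 fold change -1.39, SE 0.062, edgeR adjusted p = 4.65e-17). Its partner COL9A3 had 2 to 16 counts per library and a log2 fold change of -1.65, with 155 exonic bases shared with the more abundant TCFL5 on the opposite strand. COL9A3 was tested only through its siCtrl libraries, so its value is a description. The ratio of the pair did not pass (log2 difference 0.21, SE 0.30, exact permutation test, adjusted p = 0.532). With a pseudocount of 5 counts that difference changed sign (-0.42). The related genes COL14A1 (-1.52), COL22A1 (-0.66) and COL16A1 (-0.53) were lower by the log2 fold changes given, COL20A1 was not called (0.30), and COL12A1, a collagen of dense connective tissue and of bone, was higher (0.51). COL12A1 was at 560.2 to 660.1 CPM in siCtrl and 818 to 892 CPM in siDDX41. The network-forming COL8A1, a collagen of vessels and the eye, was higher, at 87.3 to 93.2 CPM in siCtrl and 109 to 128 CPM in siDDX41 (log2 fold change 0.36, SE 0.035, edgeR adjusted p = 2.56e-10). COL8A2, with 10 to 23 counts per library, was not called (-0.38), and COL8A1 gained relative to it (log2 difference 0.79, SE 0.23, exact permutation test, adjusted p = 0.0229). The log2 ratios of this pair overlapped between the groups, at 6.64 to 6.91 in siCtrl and 6.77 to 7.98 in siDDX41. COL26A1 was lower (-1.14), as was COL7A1 of anchoring fibrils (-0.45). COL15A1 passed the filter on low counts only through its siCtrl libraries, so its values too are a description. It was called lower in the main analysis (-0.94; 4 to 18 counts per library), but not without siDDX41 replicate 4 (edgeR adjusted p = 0.0122, log2 fold change -0.79) or with DESeq2 (adjusted p = 0.0211), and its relative COL18A1, the source of endostatin, was not called (-0.015). COL18A1 shares 18.5% of its exonic bases with SLC19A1 on the opposite strand.

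FN1 codes for fibronectin, an adhesive glycoprotein on which collagen fibrils are laid down. It was at 1613, 1467, 1966, 1663 and 1651 CPM in siCtrl and at 1514, 1467, 1437, 1390.5 and 1417 CPM in siDDX41. The groups overlapped, since siCtrl replicate 2 lay within the range of the siDDX41 libraries, and siCtrl replicate 3 was the highest of all. FN1 was not called (log2 fold change -0.21, SE 0.069, edgeR adjusted p = 0.0211). Leaving out that library moved it past the threshold (log2 fold change -0.15, edgeR adjusted p = 2.52e-04), as did leaving out siCtrl replicate 2 (log2 fold change -0.25, edgeR adjusted p = 9.29e-04), so the call of FN1 depends on which control libraries are used. Correction for gene length gave -0.24 (edgeR adjusted p = 3.34e-04).

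The 5 genes of the LOX family were called, 2 as higher and 3 as lower, where 62.4% of all tested genes were called. The call of LOXL4 was lost in alternatives given below. LOXL1 (ENSG00000129038.15; chr15:73925989-73952137), which is needed for elastic fibre maintenance, was at 77.02, 91.2, 81.03, 78.98 and 90.5 CPM in siCtrl and at 31.2, 38.3, 37.1, 34.9 and 38.1 CPM in siDDX41. It was 2.33-fold lower without overlap (log2 fold change -1.22, SE 0.060, edgeR adjusted p = 1.75e-11). LOXL2, which acts on type IV collagen among other substrates, was at 279, 276, 261, 256 and 281 CPM in siCtrl and at 375, 386, 396, 381 and 387 CPM in siDDX41. It was 1.42-fold higher without overlap (log2 fold change 0.51, SE 0.028, edgeR adjusted p = 8.82e-16). LOX itself was higher (log2 fold change 0.44), and LOXL3 was lower, ranging from 21.9 to 26.2 CPM in siCtrl and from 12.2 to 15.4 CPM in siDDX41 (log2 fold change -0.82, SE 0.059, edgeR adjusted p = 3.93e-13). LOXL3 shares 20.7% of its exonic bases with HTRA2 and LOXL1 shares 9.21% with LOXL1-AS1, both on the opposite strand, and LOXL2 shares 2.01% with ENTPD4 on its own strand. Their counts could be divided differently by another counting. LOXL4 was the most abundant of the family and ranged from 437 to 453 CPM in siCtrl and from 368 to 439 CPM in siDDX41 (log2 fold change -0.12, SE 0.038, edgeR adjusted p = 0.00855). This call was lost after GC correction (log2 fold change -0.021, edgeR adjusted p = 0.603), without any 1 of the 5 siCtrl libraries, and without siDDX41 replicate 1, 3 or 4 (edgeR adjusted p from 0.0109 to 0.0303 over these libraries). Other scalings, a length correction and DESeq2 did not call it either.

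The 3 PLOD genes code for lysyl hydroxylases and split likewise. PLOD1 (ENSG00000083444.16; chr1:11934205-11975538), which acts on lysines of the helical part of collagen, was at 626, 583, 579, 567 and 612 CPM in siCtrl and at 385, 404, 386, 404 and 413 CPM in siDDX41. It was 1.49-fold lower without overlap (log2 fold change -0.58, SE 0.029, edgeR adjusted p = 1.15e-16). PLOD2, which acts on the telopeptides at the chain ends, was at 299, 278, 285, 289.7 and 281 CPM in siCtrl and at 373, 361, 359, 376 and 353 CPM in siDDX41. It was 1.27-fold higher, also without overlap (log2 fold change 0.35, SE 0.027, edgeR adjusted p = 2.28e-12). PLOD3, which also transfers sugars to hydroxylysine, ranged from 184 to 211 CPM in siCtrl and from 191 to 212 CPM in siDDX41 and was not called (log2 fold change 0.014, SE 0.036, edgeR adjusted p = 0.737). It was called higher after correction for GC content (log2 fold change 0.11, edgeR adjusted p = 0.00147).

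Together the 65 genes took 1.16% to 1.24% of all counts in the siCtrl libraries and 1.19% to 1.302% in the siDDX41 libraries, ranges that overlap. Within this total the make-up moved. Type IV collagens took 11.1% to 11.6% of the matrix gene counts in siCtrl and 15.8% to 16.5% in siDDX41, and their summed level was 1345 ± 41.96 CPM against 2001 ± 58.2 CPM (SD, n = 5). The other collagens took 15.7% to 16.5% and 18.3% to 18.8%. Fibrillar collagens took 23.4% to 25.5% and 20.98% to 22.9%, most of it from COL1A1, and the PLOD genes 8.503% to 9.45% and 7.36% to 8.11%. The shares of these classes did not overlap between the groups, and neither did those of the laminins (17.3% to 17.8% and 16.5% to 16.8%) and FN1 (12.5% to 15.95% and 11.3% to 12.3%). Only the LOX family overlapped (7.07% to 7.72% and 7.09% to 7.85%). Shares add up to a fixed total, so a higher share of one class lowers the others, and they were not tested.

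Several of the genes are neighbours on a chromosome. COL3A1 (chr2:188974373-189012746) and COL5A2 end toward each other 19.2 kb apart in the annotation used here (GRCh38), and both were lower. COL6A1 (chr21:45981770-46005050) and COL6A2 (chr21:46098112-46132848) follow each other in the same direction at 93.1 kb, and both were higher.

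The called genes also differed in base composition. The median GC content of the exons was 48.4% for the 17 genes that were higher and 57.1% for the 22 genes that were lower. Over all tested genes with a value, the medians were 45.5% (4862 higher genes) and 49.8% (5140 lower genes), a difference in the same direction. The higher matrix genes also spanned more of the genome, with a median of 150.2 kb against 51.5 kb for the lower ones; over all tested genes these medians were 36.3 and 32.4 kb. These medians are descriptions without a test.

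Genes that serve collagens on their way through the cell were examined as lists beside the 62.4% of all tested genes that were called (30.3% higher, 32.1% lower). Of the 15 genes for folding and modification in the endoplasmic reticulum, 4 were higher and 7 lower among 15 tested (median log2 fold change -0.10). SERPINH1, the collagen chaperone HSP47, had the lowest log2 fold change, with 527 ± 22.8 CPM in siCtrl and 206 ± 8.59 CPM in siDDX41 (SD, n = 5; log2 fold change -1.35, SE 0.032, edgeR adjusted p = 5.12e-24). P4HA2, a catalytic subunit of prolyl 4-hydroxylase, was lower with 195 ± 5.86 CPM in siCtrl and 112 ± 4.38 CPM in siDDX41 (log2 fold change -0.79, SE 0.031, edgeR adjusted p = 1.55e-19), whereas its relative P4HA1 was higher (log2 fold change 0.27) and their shared subunit P4HB was not called (0.021). P3H2, a prolyl 3-hydroxylase that acts on type IV collagen, was lower as well (log2 fold change -1.18, SE 0.053, edgeR adjusted p = 6.76e-18), so that this enzyme and the type IV chains COL4A1 and COL4A2 moved in opposite directions. In the list of procollagen processing, 2 were higher and 3 lower among 8 tested (median -0.074). One of the lower genes, ADAMTS14, had the largest change of the list (-2.15) at 2 to 27 counts per library, but it was tested only through its siCtrl libraries, so its value is a description. PCOLCE, which enhances removal of the C-propeptide, was lower with 192 ± 9.37 CPM in siCtrl and 108 ± 4.96 CPM in siDDX41 (log2 fold change -0.83, SE 0.035, edgeR adjusted p = 4.13e-18), the protease BMP1 was lower (log2 fold change -0.25), and PCOLCE2 was higher (0.36).

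Of the partners of type IV collagen and laminin in the basement membrane, 6 were higher and 1 lower among 7 tested (median log2 fold change 0.24). Among all tested genes, 30.3% were higher and 32.1% lower. The list is short and was not tested as a set. NID1, which links laminin to type IV collagen, had 271 ± 8.14 CPM in siCtrl and 343 ± 7.402 CPM in siDDX41 (SD, n = 5; log2 fold change 0.34, SE 0.027, edgeR adjusted p = 2.95e-12). PXDN, which cross-links type IV collagen, was higher too (log2 fold change 0.21, SE 0.025, edgeR adjusted p = 8.93e-09), as was SPARC, a collagen-binding protein with 2807 ± 32.8 CPM in siCtrl and 3181 ± 96.5 CPM in siDDX41 (log2 fold change 0.18, SE 0.024, edgeR adjusted p = 1.42e-07). The proteoglycan genes HSPG2 (0.49) and AGRN (0.67) were higher too, and NID2 (-0.79) was the lower one. Of the receptors for these proteins, 6 were higher and 4 lower among 14 tested (median 0.068), beside the same shares of all genes. DDR1 was not tested. ITGA5, the alpha subunit of the main fibronectin receptor, was lower with 308 ± 16.5 CPM in siCtrl and 73.5 ± 3.83 CPM in siDDX41 (log2 fold change -2.07, SE 0.038, edgeR adjusted p = 5.12e-24). ITGA2, a subunit of a collagen receptor, was higher with 63.1 ± 7.18 CPM in siCtrl and 189 ± 14.7 CPM in siDDX41 (log2 fold change 1.59, SE 0.082, edgeR adjusted p = 4.02e-08), the largest rise of the list. The laminin receptor subunits went apart, ITGA7 being lower (log2 fold change -0.56, SE 0.033, edgeR adjusted p = 3.76e-15) and ITGA6 higher (log2 fold change 0.40, SE 0.026, edgeR adjusted p = 3.67e-14).

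In the list of elastic fibre, proteoglycan and matricellular genes, 6 were higher and 7 lower among 14 tested (median -0.076), and 5 were not tested. Among all tested genes, 30.3% were higher and 32.1% lower. CCN1 and CCN2, secreted regulators of adhesion, rose most, CCN1 with 375 ± 8.72 CPM in siCtrl and 963 ± 19.8 CPM in siDDX41 (SD, n = 5; log2 fold change 1.36, SE 0.026, edgeR adjusted p = 1.76e-26) and CCN2 with 569.9 ± 15.9 CPM in siCtrl and 1503 ± 56.02 CPM in siDDX41 (log2 fold change 1.40, SE 0.028, edgeR adjusted p = 3.19e-26). EFEMP2, which brings LOX to elastic fibres, was lower (log2 fold change -0.93, SE 0.041, edgeR adjusted p = 4.25e-18). BGN, the proteoglycan biglycan that binds collagen, had the lowest log2 fold change of the list (-2.27) at 5 to 47 counts per library. Its siDDX41 mean of 0.3502 CPM was under the filter cutoff of 0.422 CPM, so it was tested mainly through its siCtrl libraries and the value is a description. The gene of the adhesion-modulating glycoprotein tenascin C, TNC, was lower too (-0.78), while FBN1 and FBN2, whose fibrillins form microfibrils, were higher (0.31 and 0.32).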

How the data were processed

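The deposited files hold raw read counts per gene for each of 10 libraries. Per the study's methods and the submitters' processing notes, the authors demultiplexed the reads with bcl2fastq (2.19), aligned them with STAR (2.7) to the human genome hg38 with GENCODE release 25 and counted them per gene with featureCounts (1.6). The strand setting of the counting is not given in the sources used here. Libraries were grouped by their labels.

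Counts were tested with edgeR 4.0.16 in R 4.3.3 (TMM scaling, filterByExpr by group with a minimum count of 10, robust quasi-likelihood fit, Benjamini-Hochberg adjustment over all tested genes, adjusted p under 0.01). The biological coefficient of variation was 3.65%. The procedure was tested on simulated counts first. The 20 pairs of libraries within a group differed by more than counting noise (chi-square per degree of freedom 1.84 to 6.18), so none was treated as a copy of another. Chain ratios were tested with scipy 1.17.1 at an adjusted p under 0.05. DESeq2 1.42.0 served as an alternative. Positions, symbols and exon features come from GENCODE 44 (GRCh38), to which 56948 of 63299 identifiers matched by gene ID. Promoter sequences come from RefSeq.

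Members and lists were chosen with earlier results of these data known. 1 tested member, the chain pairs that hold it and 1 marker are not reported here; the member stays in the counts over classes. Full values are given for DDX41, FN1, and in each class for the 3 genes with the smallest adjusted p, the 2 with the highest level per length in siCtrl, and the one with the largest absolute log2 fold change among those with a mean of at least 5 CPM. The chain pairs are given by their ratios. The lists were collagen folding and modification, procollagen processing, basement membrane partners, receptors, and elastic fibre, proteoglycan and matricellular genes; in each, the 3 genes with the smallest adjusted p follow the rule, and other list genes were named after their values were seen. Alternatives were other scalings, filters and thresholds, a minimum fold of 1.2, corrections for GC content and gene length, the replicate number as a block, another pseudocount, transcript length, and leaving out each library.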

Additional observations from a re-analysis of the deposited data

Results flagged for a closer look

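The share of the matrix gene counts taken by FN1 was 12.3% in siDDX41 replicate 1, against 11.3% to 11.5% in the other 4 siDDX41 libraries, and the gap to the nearest of them was wide for the range of the group. Of 96 groups of 5 values checked in this way, this was the 1 with such a library. Chance alone gives about 1 in 20, or 4.8 of the 96, so 1 is fewer than chance gives.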

How the results depend on the processing

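Of the 39 matrix genes called, 29 kept their direction and their call in each alternative that tested them, and 10 (LAMC1, LAMC3, COL2A1, COL6A2, COL7A1, COL15A1, COL17A1, COL24A1, COL27A1 and LOXL4) lost the call in at least 1. These numbers include COL4A3, COL9A3 and COL15A1, which reached the filter on low counts in the libraries of 1 group only. The filter at 1 CPM left genes of low counts untested. The chain ratios kept direction and side of the threshold in 119 of 121 comparisons with an alternative. Of the scalings, upper-quartile scaling put the median log2 fold change of all genes farthest from 0, at 0.015.

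The number of fibrillar genes called higher was 1 in place of 2 without a filter on low counts, 1 with a filter at 1 CPM, 1 against a minimum fold of 1.2, 1 with DESeq2, and 1 to 2 when single libraries were left out. Against a minimum fold of 1.2, 2116 of all tested genes were higher and 2925 lower, and 1 laminin gene was higher. With a GC correction, 19 matrix genes were higher and 19 lower, with 4 lower fibrillar genes in place of 6. With GC correction 2 PLOD genes were higher, and 2 with GC correction and block together.

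Signs changed only among genes that were not called. COL1A1 was at a log2 fold change of 0.0080 with GC correction and 0.0075 with the block added. COL18A1 was at 0.0019 with upper-quartile scaling and 0.011 with length correction. With single libraries left out, COL18A1 ranged from -0.059 to 0.043, LAMA5 from -0.080 to 0.012 and PLOD3 from -0.014 to 0.034. Of other genes not called, LAMA3 ranged from 0.061 to 0.29, COL20A1 from 0.10 to 0.41, LAMB1 from -0.085 to -0.016 and COL6A3 from -0.095 to -0.021. In the same way, COL4A5 ranged from 0.022 to 0.073, LAMB3 from 0.016 to 0.054 and COL8A2 from -0.58 to -0.27. Of the chain ratios, COL9A2/COL9A3 was -0.42 with a pseudocount of 5 counts, and with single libraries left out COL9A2/COL9A3 ranged from 0.0056 to 0.42, COL4A5/COL4A6 from 0.28 to 0.50 and LAMA5/LAMC1 from -0.21 to -0.11. The cause was not tested.

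With the replicate block, 17 matrix genes were higher and 22 lower, and 4790 and 5097 of all genes, against 4890 and 5178 without it. The block moved no log2 fold change of a matrix gene by more than 0.012, and the calls of 2 changed: COL2A1 was no longer called (edgeR adjusted p = 0.0102, log2 fold change -0.49) and COL1A1 was called lower (edgeR adjusted p = 0.00853, log2 fold change -0.086). Libraries of the same number shared only that number: the correlation of their deviations from the group means lay between -0.15 and 0.12, and 1 of 5 numbers correlated best with its own. Calls were lost in more than 1 alternative for COL2A1, COL15A1 and COL24A1, which had few counts. They were also lost in more than 1 for COL27A1 (339 to 488 counts per library) and LOXL4 (8007 to 10875). The part of depth in this was not tested.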
